A study of Mus musculus with 9 samples.

Results

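The genes described here are *Rbbp4*, the gene mutated in the study, and genes whose products handle newly made histones H3 and H4. The histone chaperone genes are the CAF-1 subunits *Chaf1a* and *Chaf1b*, the ASF1 paralogs *Asf1a* and *Asf1b*, *Hira*, and *Nasp*. *Hat1*, which encodes an H4 acetyltransferase, is grouped with them. All 8 genes were taken by symbol from the gene count files, which list 25239 gene symbols. Each was found and passed the filter on low counts. RNA-seq was performed on mouse E14 embryonic stem cells (ESCs) in 3 groups of 3 libraries. The control group is the parental Rbbp4+/+ line. Ins/Ins cells are homozygous for an insertion of 3 nucleotides in *Rbbp4*, and Ins/Del cells combine 1 copy of that insertion with an allele that lacks 18 nucleotides. The strain is given as 12910la for all libraries, and all cells were grown with 15% fetal bovine serum and leukemia inhibitory factor. Each mutant line is 1 clone isolated after CRISPR-Cas9 editing, so a difference between the lines can come from the allele or from the clone, and these cannot be told apart. Nothing says whether the 3 libraries of a line came from separate cultures, and p-values measure the spread between these libraries, which may be technical.

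Histone chaperones bind histones outside the nucleosome and pass them from synthesis to DNA. HAT1 acetylates new H4 in a complex with an RBBP4-family protein, NASP keeps a soluble reserve of H3-H4, and ASF1 hands H3-H4 dimers to CAF-1, which deposits them at replication forks, or to HIRA, which deposits the variant H3.3 independently of replication. RBBP4 is a WD-repeat protein that binds H4 and serves as the small subunit of CAF-1. It is also a subunit of PRC2, NuRD, and other chromatin complexes, and its close paralog RBBP7 is the usual partner of HAT1. In ESCs, loss of CAF-1 activity is known to raise the share of cells that resemble the 2-cell embryo.

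Both *Rbbp4* alleles change a short stretch of coding sequence. *Rbbp4* lies on chromosome 4 from 129307100 to 129335370 of GRCm38 (mm10), on the minus strand. In the transcript Rbbp4-201, codons 77 to 90 lie in exon 3 of 12, at chr4:129328628-129328669. The reference sequence is shown because it holds the positions that both alleles alter. Capitals mark codons 79 to 84, which the deletion removes, and the insertion falls at codons 84 to 85. The matching stretch of the paralog, codons 76 to 89 of Rbbp7-201, lies in exon 3 on chromosome X at chrX:162768916-162768957, plus strand. Its capitals mark the 10 of 42 bases that differ from *Rbbp4*. Both are read 5′ to 3′ in the direction of the transcript.
Rbbp4: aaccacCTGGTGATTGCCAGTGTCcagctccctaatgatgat
Rbbp7: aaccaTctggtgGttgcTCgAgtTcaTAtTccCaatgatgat
Both *Rbbp4* lesions are multiples of a codon and keep the reading frame. The counts are per gene and do not separate the alleles, so neither lesion was seen in the data used here. The coding sequences of *Rbbp4* and *Rbbp7* are 78.4% identical over 1272 aligned bases, and the longest run of bases that their transcripts share is 20, shorter than the 50-bp reads. *Asf1a* and *Asf1b* are 71.8% identical, with a longest shared run of 20 bases.

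The libraries held 15838064 to 21366868 counted reads. Of 14125 genes tested, 58.4% were called in Ins/Ins cells against control (29.0% higher, 29.4% lower), 62.5% in Ins/Del cells against control (30.6% higher, 31.9% lower), and 10.8% between the mutant lines (6.17% higher in Ins/Del, 4.64% lower). Called means an adjusted p of at most 0.01 in the quasi-likelihood test of edgeR. The summed level of 10 ESC markers was 99405 to 104100 normalized counts in control, 123071 to 124906 in Ins/Ins, and 122836 to 125562 in Ins/Del libraries. Of these markers 7 were called higher and 2 lower (*Utf1* and *Pou5f1*) in Ins/Ins cells, and 6 higher and 1 lower (*Utf1*) in Ins/Del cells. The 2-cell-like markers rose in both lines, 12 of 12 tested. The sum of the 13 markers found was 1565 to 1577 normalized counts in control, 4209 to 4371 in Ins/Ins, and 5938 to 6172 in Ins/Del libraries. All gene lists were chosen with earlier results of these data known, so counts of their genes that rose or fell are descriptions only. Of 4 fibroblast markers tested, *Thy1* rose and 3 collagen genes fell in both mutant lines. The sum of the 7 listed fibroblast markers was 578 to 678 normalized counts in control, 256 to 283 in Ins/Ins, and 342 to 364 in Ins/Del, and *Lum* had at most 1 read in any library. The 6 primitive endoderm markers summed to 366 to 393, 206 to 267, and 315 to 343 normalized counts in control, Ins/Ins, and Ins/Del libraries. *Dab2* and *Gata4* fell in both lines, with *Dab2* going from a mean of 265 to 104 and 109 normalized counts. Of the others, only *Sox7* was called higher in Ins/Ins cells, whereas all 4 were called higher in Ins/Del cells. The median log2 fold change of the 6 was 0.13 in Ins/Ins and 1.01 in Ins/Del cells. In the direct comparison of the lines 2 of the 6 were called, both higher in Ins/Del cells, beside 10.8% of all genes. Some counts were low, with 6 to 10 reads of *Sox17* in a control library. The part of these cell-state differences in the results that follow was not tested. In bulk RNA, fewer cells of a type and less RNA per cell cannot be told apart.

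The mRNA of *Rbbp4* itself differed sharply between the mutant lines. *Rbbp4* had 9932, 9965, and 10117 normalized counts in the libraries of control cells, 5485, 5551, and 5776 in those of Ins/Ins cells, and 10129, 10344, and 10603 in those of Ins/Del cells. The Ins/Ins libraries lie far below all others, and the Ins/Del libraries lie just above the control libraries without overlap. *Rbbp4* mRNA was 44.0% lower in Ins/Ins cells than in control (log2 fold change −0.84, SE 0.03, edgeR adjusted p = 1.8e-25). In Ins/Del cells the log2 difference from control was 0.05 (95% interval −0.01 to 0.11) and did not pass the test (edgeR adjusted p = 0.11). The direct comparison of the lines, which tests whether the effects of the 2 genotypes differ, gave a 1.85-fold higher level in Ins/Del cells (log2 0.89, SE 0.03, edgeR adjusted p = 4.1e-24). By p-value *Rbbp4* stood first of the 14125 genes in this direct comparison, and 254 genes had a larger change. Against control, 2921 genes changed more than *Rbbp4* did in Ins/Ins cells. The log2 fold change stayed between −0.86 and −0.81 in Ins/Ins cells, and between 0.87 and 0.91 between the lines, over 16 alternative settings. Exons of the lowly expressed gene *Sync* and of the lincRNA Gm26722 overlap 11.8% and 18.1% of the *Rbbp4* exons on the opposite strand, and the strand setting of the counting is not given in the sources used here.

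**Figure D1:**
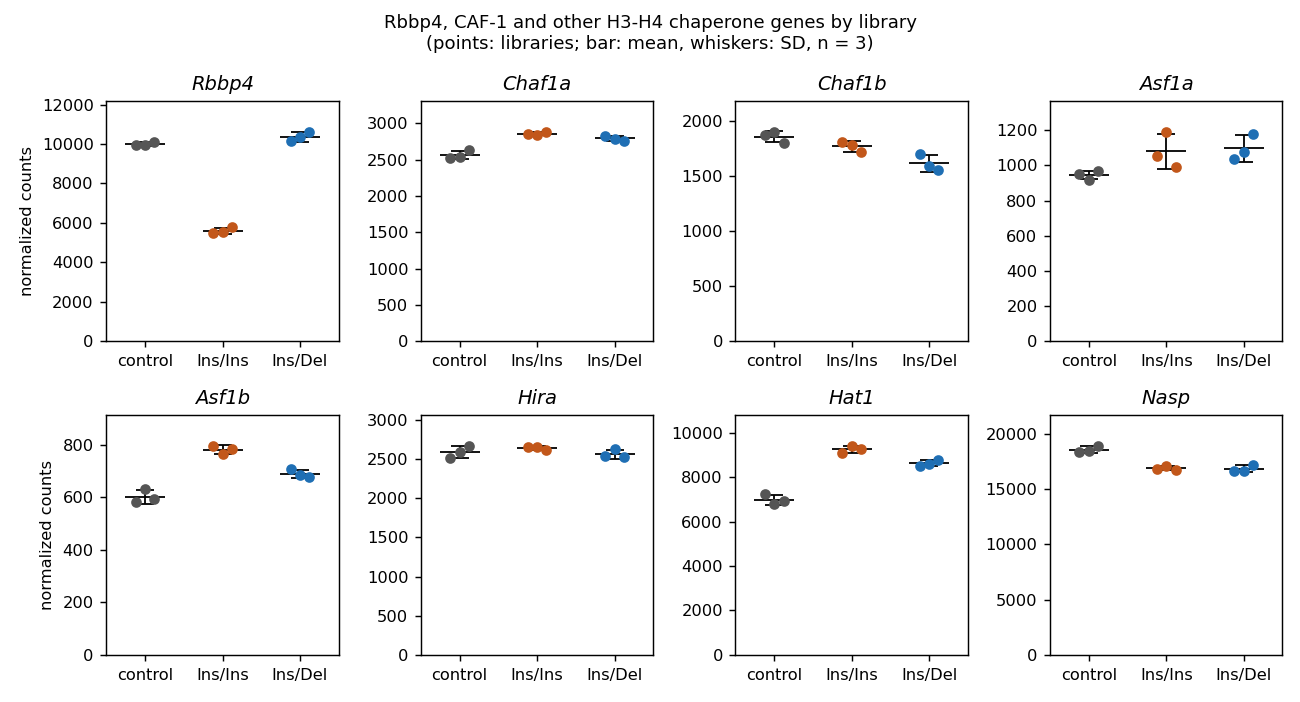
Normalized counts (vertical axes, each from 0) of the 8 genes in each library of control, Ins/Ins, and Ins/Del ESCs. Points are libraries, bars are means, and whiskers are SD (n = 3). *Rbbp4* sits at 5485 to 5776 in the Ins/Ins libraries and at 9932 to 10603 in the other 6, and *Hat1* is the gene with the clearest rise in both mutant lines.

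Of 4 tested genes starting within 100 kb, none differed between the mutant lines by the edgeR test. *C77080* was higher in both lines (log2 0.18 and 0.20), and *Zbtb8a*, which encodes a zinc finger protein, was lower in both (log2 −0.25 and −0.36). The divergent neighbour *Zbtb8os* and *Sync* passed the test in neither comparison. The 3 genes with expression patterns most like that of *Rbbp4* were sought over the 9 libraries, among 10215 genes with a mean of at least 100 normalized counts. *Rbm5*, which encodes an RNA-binding splicing factor, had means of 1794, 1242, and 1812 normalized counts in control, Ins/Ins, and Ins/Del cells (Pearson r of log2 levels 0.983). *Ceacam1*, which encodes a cell adhesion protein, had means of 233, 145, and 238 (r 0.979). *Glul*, which encodes glutamine synthetase, had means of 6354, 5161, and 6138 (r 0.977). These genes were picked for their likeness, and the libraries share their lines, so the correlations are a description only.

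*Rbbp7*, the paralog that can take the place of RBBP4 in several complexes, moved the other way from *Rbbp4* between the mutant lines. *Rbbp7* had 7987, 7802, and 7828 normalized counts in control, 7371, 7536, and 7470 in Ins/Ins, and 6703, 6630, and 6894 in Ins/Del libraries. The 3 lines do not overlap, and the order falls from control to Ins/Ins to Ins/Del. The log2 difference was −0.08 in Ins/Ins cells (SE 0.03), which did not pass the limit in edgeR (adjusted p = 0.013) but did in DESeq2 (adjusted p = 0.0069). *Rbbp7* fell in Ins/Del cells by 14.4% (log2 −0.22, SE 0.03, edgeR adjusted p = 4.7e-09), and it was lower in Ins/Del than in Ins/Ins cells (log2 −0.15, edgeR adjusted p = 1.9e-04). *Rbbp7* therefore showed no rise in the line with less *Rbbp4* mRNA. Its exons share 7.42% of their length with *Txlng* on the opposite strand, and *Txlng* was lower in both mutant lines (log2 −0.27 and −0.28).

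The ratio of *Rbbp4* to *Rbbp7* reads within each library does not depend on library size. It is not corrected for exonic length, which is 4407 bp for *Rbbp4* and 2346 bp for *Rbbp7*. The read ratio was 1.27 ± 0.03 in control (SD, n = 3), 0.751 ± 0.019 in Ins/Ins, and 1.54 ± 0.02 in Ins/Del. *Rbbp4* reads thus outnumbered *Rbbp7* reads in control and Ins/Del libraries, and the order was turned in each Ins/Ins library (0.737 to 0.773). The sum of the paralogs was 17877 ± 96 normalized counts in control (SD, n = 3), 13063 ± 196 in Ins/Ins, and 17101 ± 350 in Ins/Del. Relative to the control mean these sums were 73.1% in Ins/Ins cells and 95.7% in Ins/Del cells. The summed counts were not divided by exonic length, so the longer *Rbbp4* weighs more in them than *Rbbp7*. They are therefore not a measure of the number of transcripts of the 2 paralogs.

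**Figure D2:**
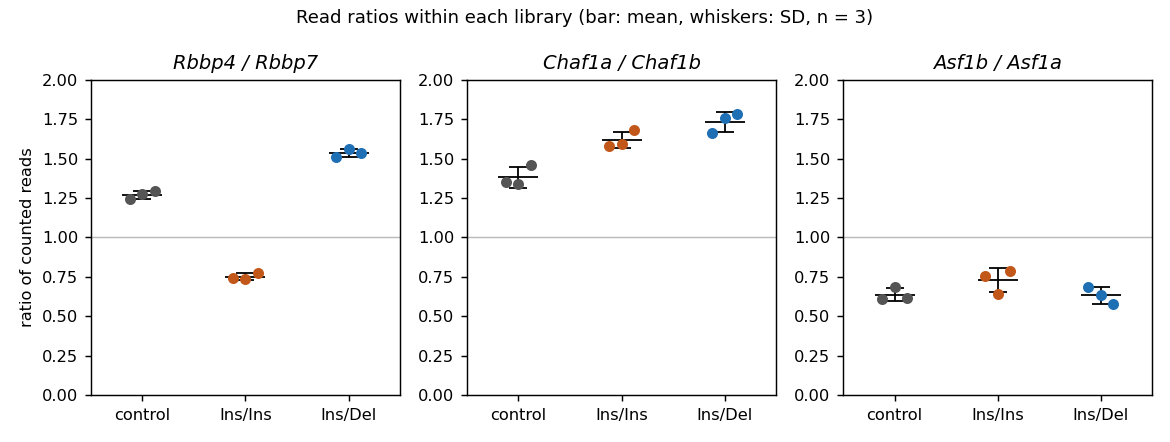
Ratio of counted reads of 2 genes within each library (vertical axis, the line marks 1) for *Rbbp4* over *Rbbp7*, *Chaf1a* over *Chaf1b*, and *Asf1b* over *Asf1a*. Points are libraries, bars are means, and whiskers are SD (n = 3). The first ratio falls to 0.751 in Ins/Ins cells and rises to 1.54 in Ins/Del cells. The second is lowest in control, and the third overlaps between the lines. The reads are not corrected for exonic length.

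Apart from *Rbbp4*, the 8 genes changed by less than a log2 of 0.5 in each comparison. Of the 8 genes, 6 were called in Ins/Ins cells, 4 higher and 2 lower, beside 58.4% of all genes tested. In Ins/Del cells 6 were also called, again 4 higher and 2 lower, beside 62.5% of all genes. The median log2 fold change of the 8 genes was 0.09 in each line, and that of all tested genes was 0.00 and −0.01. The median absolute log2 fold change of all tested genes was 0.30 in Ins/Ins and 0.34 in Ins/Del cells. In Ins/Del cells 2.05% (*Hira*) to 46.1% (*Hat1*) of tested genes changed less than a gene of the 8. In Ins/Ins cells 79.3% changed less than *Rbbp4*, 59.3% less than *Hat1*, and 57.4% less than *Asf1b*. For the others this share was 6.29% (*Hira*) to 34.7% (*Asf1a*). Between the mutant lines 1 of 8 was called, *Rbbp4*, beside 10.8% of all genes. Without any 1 of the control libraries *Hat1* was called as well, and without Ins/Del replicate 1 *Chaf1b* was, for a count of 2. The comparisons with control share the control libraries. A call need not mean a large change, as *Nasp* was called in Ins/Ins cells where its mean fell by 8.82%.

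Of the CAF-1 subunit genes, *Chaf1a* rose in both mutant lines, whereas *Chaf1b* was called lower in Ins/Del cells. *Chaf1a*, which encodes the large subunit that binds PCNA and histones, had 2524, 2540, and 2628 normalized counts in control, 2857, 2841, and 2881 in Ins/Ins, and 2828, 2791, and 2762 in Ins/Del libraries. All mutant libraries lie above all control libraries, and those of the mutant lines do not overlap each other. *Chaf1a* rose in Ins/Ins cells (log2 0.16, SE 0.03, edgeR adjusted p = 6.5e-05) and in Ins/Del cells (log2 0.12, SE 0.03, adjusted p = 0.0011). Between the lines its log2 difference was −0.03 (edgeR adjusted p = 0.53). Exons of *Ubxn6* cover 33.6% of the *Chaf1a* exons on the opposite strand. *Ubxn6* was lower in both mutant lines (log2 −0.38 and −0.53). Whether the overlap affects the *Chaf1a* counts was not tested.

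*Chaf1b*, which encodes the middle, WD-repeat subunit of CAF-1, had 1872, 1897, and 1800 normalized counts in control, 1808, 1783, and 1716 in Ins/Ins, and 1702, 1587, and 1552 in Ins/Del libraries. The Ins/Del libraries lie below all others, and control and Ins/Ins overlap. *Chaf1b* fell by 13.1% in Ins/Del cells (log2 −0.20, SE 0.04, edgeR adjusted p = 3.1e-05). In Ins/Ins cells the log2 difference was −0.07 (SE 0.04, edgeR adjusted p = 0.12). The log2 difference between the lines was −0.13 and did not pass the limit (edgeR adjusted p = 0.018), but without Ins/Del replicate 1 it did (log2 −0.17, adjusted p = 0.0067). A drop in Ins/Del cells alone is therefore not shown. The *Chaf1a* to *Chaf1b* read ratio was 1.38 ± 0.07 in control (SD, n = 3), 1.62 ± 0.05 in Ins/Ins, and 1.73 ± 0.06 in Ins/Del, and the control libraries lay below all mutant libraries.

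**Figure D3:**
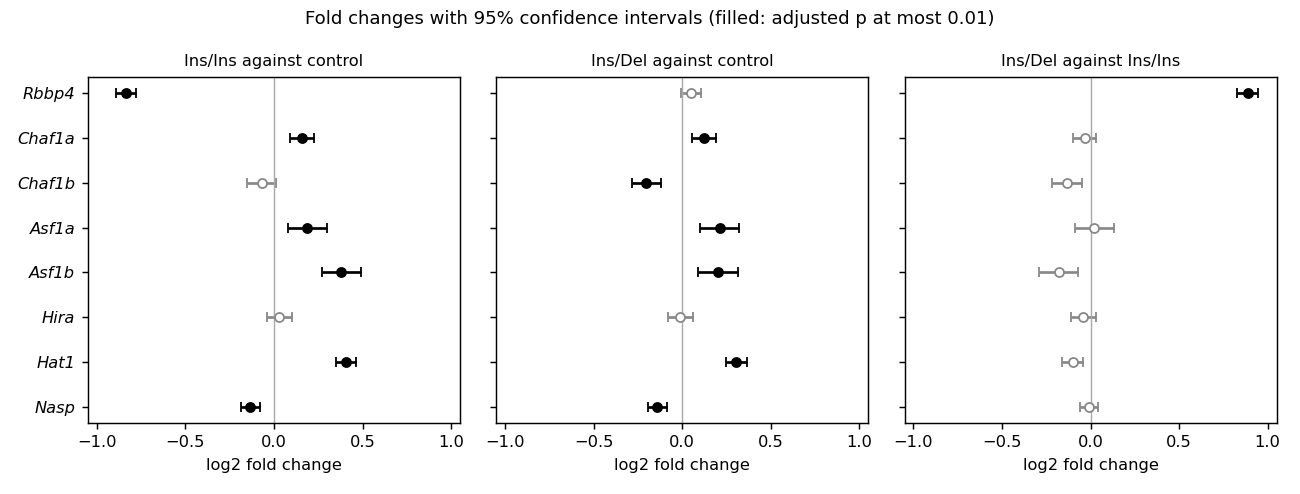
Log2 fold changes (horizontal axes) of the 8 genes in Ins/Ins against control, Ins/Del against control, and Ins/Del against Ins/Ins, with 95% intervals from the edgeR fit. Filled points passed an adjusted p of 0.01, as 6, 6, and 1 of the 8 genes did, and *Rbbp4* at −0.84 and 0.89 lies outside the range of the rest.

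Both ASF1 genes, whose products carry H3-H4 dimers between the other chaperones, rose. *Asf1a* had 952, 919, and 967 normalized counts in control, 1056, 1189, and 994 in Ins/Ins, and 1035, 1074, and 1181 in Ins/Del libraries. The mutant libraries lie above the control libraries, with a wide spread in each mutant line. The log2 fold change was 0.19 in Ins/Ins cells (SE 0.06, edgeR adjusted p = 0.0029) and 0.21 in Ins/Del cells (SE 0.06, adjusted p = 9.3e-04). Each call rested on 1 library: without Ins/Ins replicate 2 the first was 0.12 (edgeR adjusted p = 0.063), and without Ins/Del replicate 3 the second was 0.16 (adjusted p = 0.017). Exons of *Mcm9* cover 58.9% of the *Asf1a* exons on the opposite strand, and *Mcm9* passed the test in neither line (log2 −0.05 and 0.02).

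*Asf1b*, the paralog tied to proliferation, had 580, 631, and 593 normalized counts in control, 795, 764, and 784 in Ins/Ins, and 707, 683, and 679 in Ins/Del libraries. The lines do not overlap, and Ins/Ins is the highest. *Asf1b* rose by 29.9% in Ins/Ins cells (log2 0.38, SE 0.06, edgeR adjusted p = 1.1e-07) and by 14.7% in Ins/Del cells (log2 0.20, SE 0.06, adjusted p = 0.0017). The second call was lost without control replicate 1 (log2 0.17, edgeR adjusted p = 0.016) and without Ins/Del replicate 1 (log2 0.18, adjusted p = 0.0103). The lines differed by a log2 of −0.18 (edgeR adjusted p = 0.014), which passed the limit only in a fit of the mutant libraries alone (adjusted p = 0.0097) or at a limit of 0.05. The *Asf1b* to *Asf1a* read ratio was 0.637 ± 0.043 in control (SD, n = 3), 0.728 ± 0.077 in Ins/Ins, and 0.632 ± 0.055 in Ins/Del, and the libraries of the lines overlap.

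*Hira*, which encodes the central subunit of the complex that deposits H3.3 outside replication, had the smallest differences from control of the 8 genes. *Hira* had 2509, 2587, and 2668 normalized counts in control, 2655, 2652, and 2613 in Ins/Ins, and 2535, 2630, and 2527 in Ins/Del libraries. The 3 lines overlap. The log2 differences were 0.03 in Ins/Ins cells (95% interval −0.04 to 0.10, edgeR adjusted p = 0.44), −0.01 in Ins/Del cells (−0.08 to 0.06, adjusted p = 0.78), and −0.04 between the lines (−0.11 to 0.03, adjusted p = 0.45). The annotated gene Gm28539 shares 58.7% of the *Hira* exons on the same strand. It is not among the 25239 symbols listed, of which 20953 had a read, so it was not counted under that symbol. Whether it was counted under another name, which could have left out reads of these exons, is not known.

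*Hat1*, which encodes the acetyltransferase of new H4, had the largest rise of the 8. *Hat1* had 7226, 6780, and 6924 normalized counts in control, 9086, 9400, and 9274 in Ins/Ins, and 8511, 8593, and 8778 in Ins/Del libraries. The lines do not overlap, and Ins/Ins is again the highest. *Hat1* rose by 32.6% in Ins/Ins cells (log2 0.41, SE 0.03, edgeR adjusted p = 1.8e-15) and by 23.7% in Ins/Del cells (log2 0.31, SE 0.03, adjusted p = 5.0e-12). The log2 difference between the lines was −0.10 (95% interval −0.16 to −0.04), which did not pass the limit (edgeR adjusted p = 0.0103) but did in 7 of 16 alternatives. A change of the size of that in *Hat1* was common: 59.3% of the tested genes changed less in Ins/Ins cells and 46.1% in Ins/Del cells. The genes most like *Hat1* were *Ak1*, an adenylate kinase gene (r 0.992), *Kdm5b*, an H3K4 demethylase gene (r 0.991), and *Hsp90aa1*, a heat shock protein gene (r 0.990), over the 9 libraries.

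*Nasp*, which encodes the H3-H4 reserve chaperone, fell. *Nasp* had 18343, 18405, and 18899 normalized counts in control, 16851, 17126, and 16761 in Ins/Ins, and 16641, 16658, and 17184 in Ins/Del libraries. All mutant libraries lie below all control libraries, and the mutant lines overlap. *Nasp* fell by 8.82% in Ins/Ins cells (log2 −0.13, SE 0.03, edgeR adjusted p = 2.2e-05) and by 9.28% in Ins/Del cells (log2 −0.14, SE 0.03, adjusted p = 8.6e-06). The log2 difference between the lines was −0.01 (edgeR adjusted p = 0.89).

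The genes with a pattern most like each of the others, by Pearson r over the 9 libraries, were as follows. For *Chaf1a* they were *Arfgap3* (r 0.990), *Eng* (0.987), and *Tacc1* (0.987), and for *Chaf1b* they were *Cdc42bpb* (r 0.972), *Pef1* (0.972), and *Srsf9* (0.969). For *Asf1a* they were *Zfp420* (r 0.95), *Ptgr2* (0.941), and *Ppm1d* (0.941), and for *Asf1b* they were *Kazn* (r 0.989), *Mrps18b* (0.987), and *Man2b1* (0.983). For *Nasp* they were *Sox21* (r 0.987), *Sms* (0.986), and *Khdrbs3* (0.985). Likeness in pattern did not mean likeness in size, as *Sox21*, a neural transcription factor gene, had means of 318, 90.4, and 79.4 normalized counts in control, Ins/Ins, and Ins/Del cells.

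Levels were compared between genes per exonic length, as reads per kilobase of exon scaled to library size (RPKM). In control cells *Nasp* stood highest at an RPKM of 323 ± 5 (SD, n = 3), followed by *Hat1* at 201 ± 7, *Rbbp7* at 184 ± 2, and *Rbbp4* at 124 ± 1. The CAF-1, HIRA, and ASF1 genes were lower, with *Chaf1b* at 52.1, *Hira* at 30.0, *Chaf1a* at 25.4, *Asf1a* at 19.7, and *Asf1b* at 18.4. The lengths include exons shared with another gene, 58.9% for *Asf1a*, 58.7% for *Hira*, and 33.6% for *Chaf1a*. Whether reads there were left out is not known, so the places of these 3 genes are uncertain. In control the RPKM ranges of *Asf1a* (19.1 to 20.1) and *Asf1b* (17.8 to 19.3) overlap, and the other neighbours in this order do not. *Rbbp4* stood at 69.7 ± 1.9 in Ins/Ins cells and at 129 ± 3 in Ins/Del cells. It kept its place between *Rbbp7* and *Chaf1b* in both. *Asf1a* and *Asf1b* overlap in the mutant lines too.

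**Figure D4:**
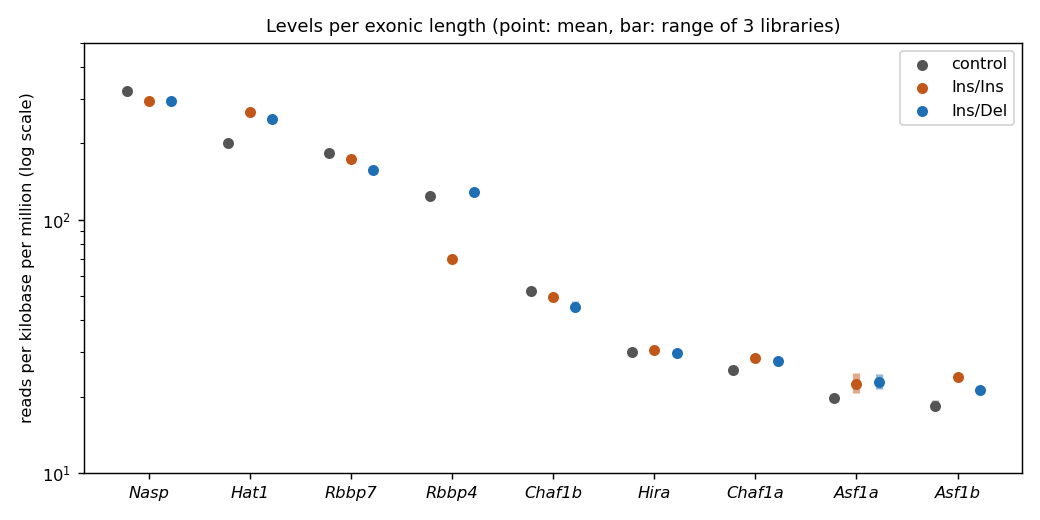
Level per exonic length (RPKM, log axis) of the 8 genes and *Rbbp7* in control, Ins/Ins, and Ins/Del cells, ordered by the control level. Points are means and bars the range of 3 libraries. *Rbbp4* drops from 124 to 69.7 in Ins/Ins cells, and *Hat1* rises from 201 to 267.

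A list of 30 other histone chaperone genes was read beside these 8. In Ins/Ins cells 14 of 30 were called, 7 higher and 7 lower, and in Ins/Del cells 18 of 30, 9 higher and 9 lower, beside 58.4% and 62.5% of all genes tested. Their median log2 fold changes were −0.0047 and 0.05. Changes of at least 0.5 on the log2 scale were found in *Supt16* and *Ipo4*. *Supt16*, which encodes a FACT subunit that moves H2A-H2B during transcription, had 11648 to 11785 normalized counts in control, 6531 to 6810 in Ins/Ins, and 6370 to 6628 in Ins/Del libraries (log2 −0.81 and −0.84, edgeR adjusted p = 2.4e-25 and 4.9e-26). *Ssrp1*, which encodes the partner subunit of FACT, was chosen for mention after its values were seen and had log2 differences of 0.08 in Ins/Ins cells (edgeR adjusted p = 0.014) and 0.11 in Ins/Del cells (adjusted p = 0.0005). *Ipo4*, which encodes the importin that carries H3-H4 into the nucleus, had 1862 to 1910 normalized counts in control, 885 to 1024 in Ins/Ins, and 1038 to 1092 in Ins/Del libraries (log2 −0.96 and −0.82, edgeR adjusted p = 6.0e-21 and 5.0e-19). Both drops were nearly as large in each mutant line and set these genes apart in size from the rest of the list.

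*Supt16* and *Ipo4* both lie in a stretch of chromosome 14 whose genes fell together. Within 45 to 88 Mb of chromosome 14, bounds chosen after the data were seen, 223 of 264 tested genes were lower and 10 higher in Ins/Ins cells (median log2 −0.91), and 215 were lower and 13 higher in Ins/Del cells (median log2 −0.93). On the rest of chromosome 14, 70 of 197 tested genes were lower and 43 higher in Ins/Ins cells (median log2 −0.07). Between the mutant lines the median of the stretch was −0.01. None of the 8 genes described here lies on chromosome 14. Exons of Gm49378 share 60.1% of the *Ipo4* exons on the same strand, and those of *Rpgrip1* 19.8% of the *Supt16* exons on the opposite strand.

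Between the mutant lines 3 of the 30 were called, beside 10.8% of all genes. *Rbbp7* and *Atrx*, which encodes the remodeler that deposits H3.3 with DAXX, were lower in Ins/Del than in Ins/Ins cells (log2 −0.15 and −0.14). *Set*, which encodes a chaperone that binds H3-H4 and H2A-H2B and is named as the remaining call, was higher (log2 0.14, edgeR adjusted p = 1.5e-04). Against control, *Atrx* was lower in Ins/Ins cells (log2 −0.28) and Ins/Del cells (log2 −0.42).

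**Figure D5:**
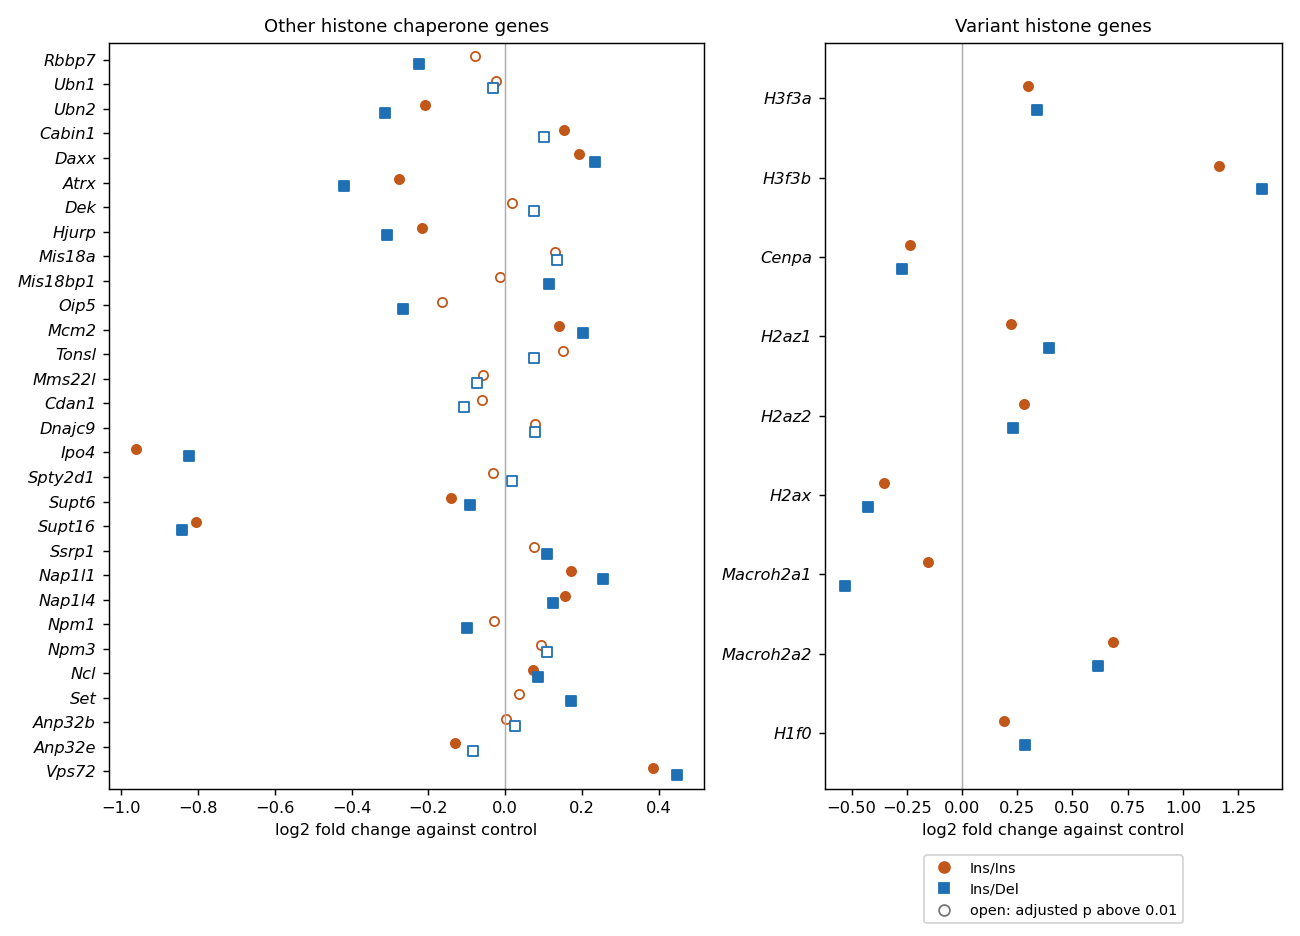
Log2 fold change against control (horizontal axes) of 30 other histone chaperone genes and 9 variant histone genes in Ins/Ins (circles) and Ins/Del (squares) cells. Filled symbols passed an adjusted p of 0.01 in edgeR. *Ipo4* and *Supt16* stand below −0.8 in both lines, and *H3f3b* stands above 1.1.

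Variant histone genes were read beside the chaperones. The list holds H3 variants, but also H2A variants and the linker histone gene *H1f0*, whose products are not H3 or H4. All 9 variant histone genes were called in each mutant line, 6 higher and 3 lower, beside 58.4% and 62.5% of all genes. *H3f3b*, 1 of 2 genes for H3.3, had 7750, 7388, and 7313 normalized counts in control, 16600, 16662, and 16997 in Ins/Ins, and 18893, 19320, and 19299 in Ins/Del libraries. The 3 lines are widely separated. *H3f3b* was 2.24-fold higher in Ins/Ins cells (log2 1.16, SE 0.03, edgeR adjusted p = 1.1e-30) and 2.56-fold higher in Ins/Del cells (log2 1.36, SE 0.03, adjusted p = 5.0e-33). It also differed between the lines (log2 0.19, edgeR adjusted p = 7.1e-07).

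*H3f3a*, the other H3.3 gene, was named after its values were seen. It rose from a mean of 1719 normalized counts in control to 2117 in Ins/Ins and 2178 in Ins/Del cells (log2 0.30 and 0.34), less than *H3f3b*. Per length, *H3f3b* went from an RPKM of 163 to 365 and 418, and *H3f3a* from 31.4 to 38.7 and 39.8. The coding sequences of the genes are 76.7% identical with a longest shared run of 23 bases, and 21.3% of the *H3f3a* exons overlap an antisense lincRNA. Reads of processed copies elsewhere in the genome were not examined.

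Among the other variants, *Macroh2a2*, a macroH2A gene, rose from 464 to 516 normalized counts in control to 746 to 802 in Ins/Ins and 727 to 771 in Ins/Del libraries (log2 0.68 and 0.62, edgeR adjusted p = 3.3e-13 and 5.3e-12). *Macroh2a1*, its paralog, fell in both lines (log2 −0.15 and −0.53) and was lower in Ins/Del than in Ins/Ins cells (log2 −0.37, edgeR adjusted p = 3.1e-10). The other genes that fell were *H2ax*, the damage-responsive H2A (log2 −0.35 and −0.42), and *Cenpa*, the centromeric H3 (log2 −0.23 and −0.27). Between the mutant lines 3 of 9 were called, beside 10.8% of all genes: *H3f3b* and the H2A.Z gene *H2az1* (log2 0.17) higher in Ins/Del cells, and *Macroh2a1* lower.

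CAF-1, ASF1B, and NASP act with DNA replication, so 20 genes of S phase were read beside them. In Ins/Ins cells 8 were called, all higher, and in Ins/Del cells 9 higher and 1 lower (*Mcm4*), against 58.4% and 62.5% of all genes called. With DESeq2, DESeq2 size factors, or total counts, 8 were called higher and 1 lower in Ins/Ins cells. The *Mcm4* call in Ins/Del cells (log2 −0.09, edgeR adjusted p = 0.0091) lies at the limit. In Ins/Del cells no gene of the list was lower in 12 of 16 alternatives. Among these were DESeq2 and the fits without control replicate 1, control replicate 2, any 1 Ins/Ins library, Ins/Del replicate 1, or Ins/Del replicate 3. *Rrm2*, a ribonucleotide reductase subunit gene, rose most (log2 0.47 and 0.50), followed by *Cdc6*, a licensing factor gene (log2 0.37 and 0.40). Between the lines 2 of 20 were called, a share near the 10.8% of all genes. *Ccne1*, which encodes cyclin E1 (log2 0.16), and *Rrm1*, the other reductase subunit gene (log2 0.11), were higher in Ins/Del cells. This count of 2 was 1 without Ins/Ins replicate 1, Ins/Ins replicate 2, or Ins/Del replicate 3. The median log2 fold change of the list was 0.12 in Ins/Ins and 0.09 in Ins/Del cells, and its summed level was 74941 to 77928 normalized counts in control, 81422 to 81987 in Ins/Ins, and 80730 to 81987 in Ins/Del libraries. The part of cell cycle differences in the chaperone levels was not tested.

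The promoters of the 8 genes, 250 bases before to 50 after the start in RefSeq on GRCm38.p6, were searched on both strands. The E2F-type letters TTTCCCGC, TTTGGCGC, TTTCGCGC, and TTTGCCGC were found in 0 of 8, and in 2.26% of 32851 promoters. The cell cycle element TTTGAA was found in 2 of 8, *Asf1b* and *Nasp*, and in 17.9% of all promoters. *Asf1b* rose and *Nasp* fell in both mutant lines.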

How the data were processed

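RNA-seq was performed by the authors on control, Ins/Ins, and Ins/Del ESCs (3 libraries each). Total RNA was isolated with a Direct-zol kit, and libraries were made with a Kapa mRNA HyperPrep kit and sequenced as paired-end 50-bp reads, which were aligned to mm10 with STAR 2.7.3, and counted with HTSeq. The HTSeq version, annotation, and strand setting are not given in the sources used here. The deposited values are raw counts per gene symbol, without normalization. The study's own test was DESeq2 1.22.2.

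Counts were fitted with edgeR 4.0.16 in R 4.3.3 (TMM, filterByExpr, glmQLFit, and glmQLFTest, all 9 libraries and 3 groups in 1 fit), and p-values were adjusted by the Benjamini-Hochberg method over 14125 genes. Normalized counts are counts per effective library size, scaled to its mean. The scripts were tested on simulated data. Each library's group and replicate number came from its labels. Same-numbered libraries showed no shared deviation (correlations −0.09 to 0.09 over 9 pairs, and −0.10 to 0.17 over 18 pairs with different numbers). With 3 libraries per line a small shared effect could go unseen, so pairing by number is not excluded. The main fit used no pairing. At a depth of 15838064 to 21366868 reads, relative counting error differs among the 8 genes. It is largest for *Asf1b* (548 to 930 reads per library) and *Asf1a* (877 to 1235 reads). For these genes it may be a large part of the spread, which was not tested. SD and SE cover the spread between libraries.

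The 8 genes and all lists were chosen with earlier results of these data known. Named beyond the 8 genes and *Rbbp7* were, per list and comparison, up to 6 called genes with an absolute log2 fold change of at least 0.5 or otherwise up to 2 called genes with the largest change, the 3 genes most like each called gene (log2 with a prior count of 0.5), and the tested genes starting within 100 kb of *Rbbp4*. Variant histones under older symbols were matched through RefSeq synonyms, and 13 of 14 listed 2-cell-like markers were found. Exonic lengths, overlaps, and coding sequences came from GENCODE M21. The alternatives were DESeq2 1.42.0, DESeq2 size factors, total counts, no filter, only the groups compared, the replicate block, each library left out, and an adjusted p limit of 0.05.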

Additional observations from a re-analysis of the deposited data

Results flagged for a closer look

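The effects of the 2 mutant lines differed in a direct test for *Rbbp4* and its paralog *Rbbp7*. *Rbbp4* was higher in Ins/Del than in Ins/Ins cells (log2 difference 0.89, edgeR adjusted p = 4.1e-24), and all Ins/Del libraries lay above all Ins/Ins libraries. *Rbbp7* was lower in Ins/Del than in Ins/Ins cells (log2 difference −0.15, edgeR adjusted p = 1.9e-04), with no overlap of libraries.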

How the results depend on the processing

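Over the 16 alternatives, 5 or 6 of the 8 genes were called in each mutant line against control. The other chaperones called ranged from 12 to 19 in Ins/Ins and from 14 to 22 in Ins/Del cells. The S phase genes called ranged from 8 to 11 and from 8 to 12. Between the mutant lines the count of the 8 genes called rose from 1 to 2 with total counts or without a filter, to 3 with only the groups compared, and to 4 at a limit of 0.05, and was 1 to 2 with a library left out. S phase genes called between the lines were 2, but 4 with only the groups compared, 6 at a limit of 0.05, and 1 to 3 with a library left out. Other chaperones called between the lines rose from 3 to 6 at a limit of 0.05, and were 2 to 4 with a library left out. With the replicate block, 1 S phase gene was called between the lines, no call of the 8 genes changed, and 8225, 8795, and 1499 of all genes were called in the 3 comparisons. The sign turned only for differences that were never called. For *Nasp* between the lines the log2 difference was 0.0032 with DESeq2, 0.0033 with its size factors, and −0.022 to 0.0013 with a library left out. For *Hira* in Ins/Del cells it was 0.0024 with only the groups compared and −0.034 to 0.021 with a library left out. For *Asf1a* between the lines it was −0.032 to 0.092 with a library left out. The causes were not tested. The 3 libraries per line from 1 clone each limit what a difference between lines can show.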
